A study of Mus musculus with 6 samples.

Results

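Levels of 10 genes that move cholesterol and fatty acids through cells were followed across peritoneal immune cells: *Abca1*, *Abcg1*, *Apoe*, *Npc1*, *Npc2*, *Soat1*, *Plin2*, *Pltp*, *Fabp4* and *Fabp5*. They were chosen by name, with earlier results of these data known, and are 10 of the 55538 features counted. All 10 were detected in macrophages (MΦs) of every library. The study asked how resident peritoneal MΦs respond while they clear apoptotic cells (ACs) in the presence or absence of the receptor Mertk. C57BL/6 mice (C57BL/6J in the study's methods) were MerTK +/+ (labelled WT) or MerTK -/- (labelled MerKD), and adherent cells from the peritoneal lavage received a media change as control or were held with ACs for 2 h or 6 h. The ACs were UV-treated human Jurkat cells, a T cell leukemia line, which carried GFP. There was 1 library for each genotype and condition, with the cells of 3 mice pooled in each, so that no difference between animals can be measured. Nothing in the sources used here says which of the library numbers 1 to 6 is which genotype or time point, so levels are given by library number and no genotype or time point is compared. *Mertk* itself lay between 17.4 and 33.9 CPM (its unique molecular identifiers, UMIs, per 1000000 UMIs) in MΦs of the 6 libraries, and it was not used to name any library.

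Macrophages that engulf dying cells take up membrane cholesterol, which is freed in the lysosome and leaves it through the NPC1 and NPC2 proteins. The sterol is then exported to apolipoproteins by the transporters ABCA1 and ABCG1 or stored as ester by SOAT1 in lipid droplets that PLIN2 coats. The sterol-sensing liver X receptors, which pair with RXR, switch on several of these genes.

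Of 7760 barcodes with 40172124 UMIs, 7665 passed the limits on genes, complexity and mitochondrial counts. Libraries held 4234786 to 10287079 UMIs, and the median per kept cell ran from 2783 in library 6 to 5794 in library 1. MΦs (2773 cells) had at least 2 UMIs of *Csf1r*, *Adgre1* and *Fcer1g*, at most 2 of *Cd79a* and *Cd79b*, and at most 1 of *Cd3d*, *Cd3e* and *Nkg7*. B cells (2948) had at least 4 UMIs of *Cd79a* and *Cd79b*, and T/NK cells (514) at least 2 of *Cd3d*, *Cd3e* and *Nkg7*. The 153 cells that met both lymphocyte rules entered neither class, and 1277 cells met no rule, 514 of them in library 6. MΦs with a UMI of only 1 of *Gata6*, *Folr2* and *Irf4* formed the Gata6+ (624 cells), Folr2+ (103) and Irf4+ (236) classes. Most MΦs entered none of these classes, since 1758 had no UMI of the 3 genes and 52 had UMIs of several. The 1758 cells were shallower than Gata6+ cells, with a median of 4136.5 against 5553 UMIs. Of all barcode sequences, 28 occurred in more than 1 library, on 56 barcodes.

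The classes were checked against markers that the rules did not use. All 6 macrophage markers were seen in at least 10% of MΦs, against 2 of 6 in B cells and 2 of 6 in T/NK cells. Of 7 markers of large peritoneal MΦs, 5 were seen in Gata6+ cells, 4 in Folr2+ cells and 1 in Irf4+ cells. Of 7 markers of small peritoneal MΦs the order was the opposite, with 2 in Gata6+, 3 in Folr2+ and 6 in Irf4+ cells. MΦs with none of *Gata6*, *Folr2* and *Irf4* showed 5 of the large and 3 of the small peritoneal MΦ markers. The Gata6+ class is thus not all MΦs with markers of large peritoneal MΦs. None of the 5 dendritic cell markers reached 10% of the Irf4+ cells, but their summed level there ran from 12.7 to 515 CPM, and *Xcr1* and *Clec9a* were at 0. The summed level of macrophage markers in T/NK cells ran from 131 CPM in library 4 to 5340 CPM in library 1, against 251 to 744 CPM in B cells.

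Promoter sequences from RefSeq (GRCm38.p6) were at hand for 6 of the 10 genes: *Abca1*, *Apoe*, *Npc2*, *Plin2*, *Pltp* and *Soat1*. The 250 bases before the start site were searched on both strands for the paired site of liver X receptor and RXR, written NGGTNANNNNNGGTNA (DR4). They were also searched for the closely spaced pair NGGTNANNGGTNA (DR1), the sterol regulatory element TCACNCCAC, the lysosomal gene motif CACGTGAC and the single receptor site AGGTCA. The DR4 letters occurred in 0.621% of all 32851 promoters and, of these genes, in *Abca1* alone, on the opposite strand from base 67 to base 52 before the start site. The single site was in 14.0% of promoters and, of these genes, in *Plin2* alone, from base 218 to base 213 and likewise on the opposite strand. DR1 (0.935% of promoters), the sterol element (1.05%) and CACGTGAC (1.85%) were in none of the 6. Both stretches are shown on the gene's strand because these genes gave the narrowest and the widest range across libraries in Gata6+ MΦs, with the match in capitals. They lie at chr4:53159896-53160145 (minus strand) for *Abca1* and at chr4:86670060-86670309 (minus strand) for *Plin2*. A match of letters is a description and does not show that a factor binds there.
Abca1: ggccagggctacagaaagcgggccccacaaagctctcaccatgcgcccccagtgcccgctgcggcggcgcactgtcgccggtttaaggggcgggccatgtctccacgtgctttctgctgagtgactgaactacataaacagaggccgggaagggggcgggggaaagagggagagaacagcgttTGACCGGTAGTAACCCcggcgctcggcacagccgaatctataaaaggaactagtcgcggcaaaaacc
Plin2: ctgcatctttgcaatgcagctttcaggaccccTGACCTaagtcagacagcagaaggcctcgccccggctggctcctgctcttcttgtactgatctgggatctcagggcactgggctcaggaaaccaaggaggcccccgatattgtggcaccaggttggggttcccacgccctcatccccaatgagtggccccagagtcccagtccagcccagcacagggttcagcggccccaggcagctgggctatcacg

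MΦs carried far more of most of these transcripts than lymphocytes did. A gene was called higher or lower in a class if the median over libraries of its log2 ratio of CPM (1 CPM added) was at least 1 in size and every library with at least 10 cells in both classes had the same sign. By this rule 8 of the 10 genes were higher in MΦs than in B cells and none was lower. Among all 9431 features compared, 17.8% were called higher and 20.6% lower. *Abcg1* and *Fabp5* were the exceptions, although both were higher in MΦs in 6 of 6 libraries, by median log2 ratios of 0.46 and 0.59. Against T/NK cells 7 genes were higher and none lower, with 16.6% of 9718 features higher and 14.6% lower. The exceptions were *Abcg1*, *Fabp5* and *Npc2*, with median log2 ratios of 0.05, 1.70 and 0.52. *Fabp5* was higher in MΦs in 5 of 6 libraries. In library 1 its ratio was -0.31, and 1 cell there held 35 of its 67 T/NK UMIs. Without library 1 *Fabp5* was called. The median over the 10 genes was 2.98 against B cells and 3.20 against T/NK cells on the log2 scale, where the medians of all features were -0.16 and -0.13. When lymphocytes with a UMI of *Csf1r* or *Adgre1* were left out, the counts were again 8 and 7. Ratios between classes were taken within each library and were not tested, since the libraries are different conditions and not replicates. Intervals cover counting error only.

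**Figure D1:**
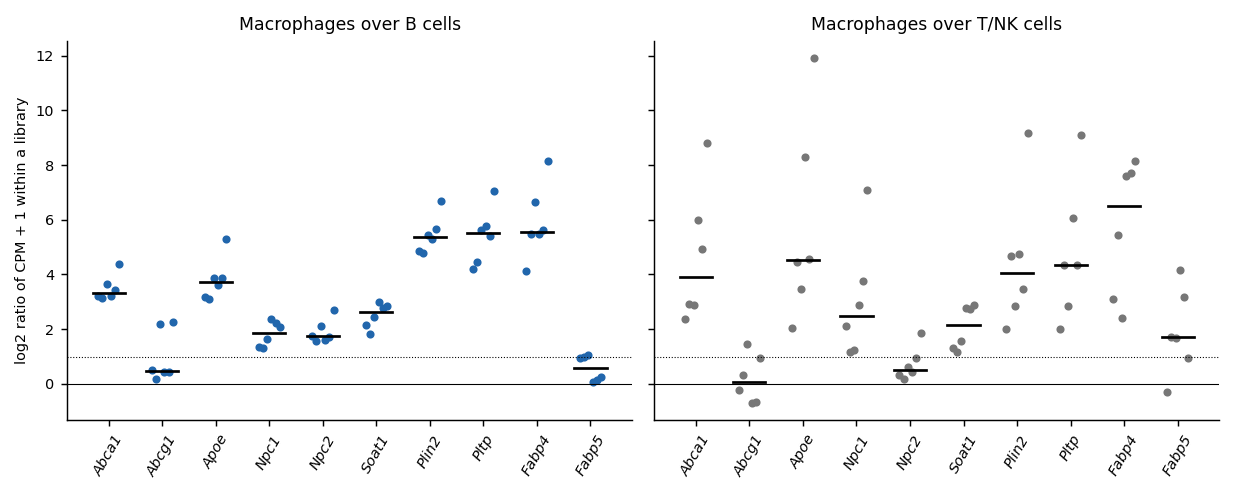
Log2 ratio of CPM + 1 within each library (points, libraries 1 to 6 from left to right), MΦs over B cells (left) and over T/NK cells (right), with the median as a line, 0 as a solid line and the limit of 1 dotted. *Plin2*, *Pltp* and *Fabp4* stand highest over B cells, *Abcg1* and *Fabp5* lowest, and ratios over T/NK cells scatter most where T/NK counts are near 0.

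*Abca1* (chromosome 4, 53030787–53159895, GRCm38) encodes the transporter that loads cholesterol onto lipid-poor apolipoproteins. In MΦs of libraries 1 to 6 it stood at 458, 468, 338, 462, 529 and 446 CPM, so 5 libraries were close together and library 3 was low. In B cells it was between 20.3 and 52.4 CPM, a pooled ratio of 10.5 (9.77–11.3). It was also one of the most widespread of the 10 transcripts. With every cell thinned to 1500 UMIs, 46.3% of MΦs (44.4–48.2%) had an *Abca1* UMI, against 6.49% of B cells (5.63–7.45%) and 2.41% of T/NK cells (1.25–4.17%).

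*Abca1* was the steadiest of the genes in Gata6+ MΦs, at 491, 525, 509, 524, 564 and 560 CPM. The highest library exceeded the lowest 1.15-fold, with an interval of 0.98 to 1.34 that includes no difference. Irf4+ MΦs had less in every library, at 220, 81.2, 108, 376, 156 and 217 CPM. Of these, library 2 rests on 6 UMIs, 5 of them in 1 cell, and library 5 on 9 UMIs. The median log2 ratio of Irf4+ over Gata6+ was -1.61, and library 4 showed the smallest gap. With a stricter class rule, which asks MΦs for 4 marker UMIs, it was just short of the limit. Folr2+ MΦs lay between, from 283 to 511 CPM in the 5 libraries with at least 10 such cells. They were below Gata6+ cells in 4 of those 5, with a median log2 ratio of -0.68 that was not called.

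*Abcg1* (chromosome 17, 31057675–31117988, overlapping *Gm25447*), which passes cholesterol to mature lipoprotein particles, was the scarcest of the 10 in counts, with 494 UMIs in all MΦs. It was not a marker of MΦs here. Levels in MΦs were 21.0, 25.0, 57.9, 30.6, 30.8 and 86.1 CPM, and libraries 3 and 6 were apart from the others, since their intervals (45.9–72.0 and 72.1–102 CPM) lay above those of the remaining 4. B cells had 12.1 to 22.7 CPM and T/NK cells 19.5 to 50.0 CPM. In libraries 3 and 6 alone the log2 ratio over B cells passed 2. T/NK cells were higher than MΦs in 3 of 6 libraries, so no direction can be given. Counts in Folr2+ and Irf4+ cells (17 and 56 UMIs in all) were too few to order the MΦ classes.

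*Apoe* (chromosome 7, 19696109–19699188), the apolipoprotein that accepts exported cholesterol, had the most UMIs of the 10 in MΦs, 61975 in all. It stood at 4127, 3340, 3601, 6152, 4738 and 3855 CPM. Library 4 was the highest and library 2 the lowest, 1.84-fold apart (1.79–1.90). A UMI was found in 80.9% of thinned MΦs (79.4–82.4%).

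Irf4+ MΦs were poor in *Apoe*. They held 661, 1449, 971, 4296, 884 and 1420 CPM, where Gata6+ cells had 3755, 2789, 4771, 5272, 4143 and 4598 CPM. The median log2 ratio was -1.96 with the same sign in 6 of 6 libraries, and only library 4 came near to equal levels. Markers of large peritoneal MΦs in Irf4+ cells summed to 963 CPM in library 4, against 203 to 502 CPM elsewhere. Small peritoneal MΦ markers were lowest there, at 4717 CPM, with library 1 next at 4948 CPM. A relation to the *Abca1*, *Apoe* or *Fabp4* levels of library 4 was not tested. In thinned cells 39.7% of Irf4+ MΦs (33.4–46.4%) had an *Apoe* UMI, against 89.2% of Gata6+ (86.5–91.5%) and 95 of 100 Folr2+ MΦs (88.7–98.4%). Folr2+ MΦs had the highest level, from 5864 to 7683 CPM in 5 libraries, and exceeded Gata6+ cells in each of them by a median of 0.62 on the log2 scale. Against Folr2+ cells the Irf4+ cells were lower by a median log2 ratio of -2.59.

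*Apoe* was spread differently over B and T/NK cells. B cells had 461, 387, 247, 499, 323 and 96.2 CPM, and 28.5% of thinned B cells had a UMI (26.8–30.1%). T/NK cells had 1014, 151, 323, 18.8, 198 and 0 CPM, with library 1 far above the rest, yet only 4.82% of thinned cells had a UMI. In the T/NK class 29 of 514 cells also had a UMI of the macrophage genes *Csf1r* or *Adgre1*, and these held 97.2% of the *Apoe* UMIs and 95.6% of those of *Lyz2*, a lysozyme gene of MΦs. They also held 84.2% of *Abca1*, 84.7% of *Plin2*, 78.6% of *Pltp* and 92.7% of *Fabp4* UMIs of T/NK cells. Without them T/NK cells had *Apoe* at 13.8 CPM, with 1.07% of thinned cells positive (0.35–2.47%).

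The 117 B cells with such a UMI, of 2948, held 23.2% of *Apoe* UMIs in the class but 88.4% of *Lyz2* UMIs. Among the other 2831 B cells *Apoe* remained at 300.0 CPM, 6.67% of the MΦ level, and in 27.3% of thinned cells (25.6–29.0%), while *Lyz2* was seen in 2.86%. *Lyz2* was the more abundant of the pair in MΦs, where the ratio of *Apoe* to *Lyz2* UMIs was 0.242 to 0.354 over the libraries. In these B cells it was 3.46 to 37.3. *Apoe* and *Lyz2* of B cells thus did not stand in the proportion found in MΦs. In T/NK cells without marker the pooled ratio was 0.137, from 21 *Apoe* UMIs. Library 6 had the least B cell *Apoe*, with 95.9 CPM in cells without marker, against 187 to 453 CPM elsewhere.

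*Pltp* (chromosome 2, 164839518–164857711), a phospholipid transfer protein that remodels lipoproteins, overlaps *Ctsa* in the annotation, so reads of the pair may not be fully separable. MΦs had 297, 246, 474, 478, 354 and 544 CPM and B cells 15.2 CPM or less. The pooled ratio was 38.8 (33.5–45.2). Of its B cell UMIs 59.2% lay in the 117 cells with *Csf1r* or *Adgre1*. The MΦ classes differed in the opposite sense from *Abca1*. Folr2+ MΦs had 426 to 1042 CPM and Gata6+ MΦs 201 to 448 CPM, with a median log2 ratio of 1.16 and the same sign in 5 of 5 libraries. Irf4+ MΦs exceeded Gata6+ in 6 of 6 libraries, by a median of 0.82 that misses the limit. In thinned cells 61.0% of Folr2+ (50.7–70.6%), 57.6% of Irf4+ (51.0–64.1%) and 31.8% of Gata6+ MΦs (28.1–35.6%) had a UMI.

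*Npc1* (chromosome 18, 12189692–12236400) encodes the membrane protein that passes cholesterol out of the lysosome, and it overlaps *Gm15956* and *Rmc1*. Levels in MΦs were 52.3, 44.5, 52.8, 97.7, 125 and 134 CPM. Libraries 4, 5 and 6 lay above 1, 2 and 3 with no overlap of their intervals. The same 3 libraries were the highest in Gata6+ MΦs, at 93.9, 80.9 and 123 CPM, where libraries 1 to 3 had 43.4, 32.4 and 24.2 CPM, but library 3 there rests on 6 UMIs. Folr2+ MΦs were above Gata6+ in 5 of 5 libraries by a median log2 ratio of 1.03. That call was lost in 6 of the alternative settings and without library 1 or 3, and is the least stable one given here.

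*Npc2* (chromosome 12, 84754562–84773152), the soluble lysosomal protein that hands cholesterol to NPC1, was broadly expressed. MΦs had 669, 580, 765, 675, 571 and 809 CPM. T/NK cells were close behind at 537, 511, 498, 500, 297 and 222 CPM, a pooled ratio of only 1.38 (1.29–1.48), and B cells had 124 to 222 CPM. Unlike *Apoe*, the T/NK signal was not in cells with macrophage genes. The 29 cells with *Csf1r* or *Adgre1* held 15.3% of T/NK *Npc2* UMIs, and 52.9% of the remaining thinned T/NK cells (48.2–57.5%) had one. Among MΦs it ran the other way from *Abca1*, since Irf4+ cells exceeded Gata6+ in 6 of 6 libraries by a median of 0.58, which was below the limit.

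*Soat1* (chromosome 1, 156424525–156474331) makes cholesteryl ester for storage, and *Gm37648* overlaps it. In MΦs it stood at 90.7, 101, 201, 217, 226 and 330 CPM, 3.64-fold from library 1 to library 6 (3.19–4.16). Libraries 1 and 2 were clearly the lowest. Gata6+ MΦs gave 71.9, 71.9, 121, 208, 188 and 286 CPM, so the spread stayed within that class. Folr2+ MΦs exceeded Gata6+ in 5 of 5 libraries by a median log2 ratio of 0.97, just under the limit of 1, and Irf4+ MΦs in 6 of 6 by 0.60.

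*Plin2* (chromosome 4, 86648386–86670060), the coat protein of lipid droplets, had the widest spread over libraries. MΦs stood at 122, 165, 430, 193, 192 and 579 CPM. Libraries 6 and 3 were far above the other 4, and library 6 exceeded library 1 by 4.73-fold (4.24–5.27). Gata6+ MΦs had 90.2, 133, 327, 217, 253 and 599 CPM, a 6.64-fold range (5.10–8.63) with the same libraries highest and lowest. B cells had 9.0 CPM or less. *Plin2* also marked MΦs cleanly: a UMI was in 26.9% of thinned MΦs (25.2–28.6%) and in 0.722% of B cells (0.447–1.10%), and 55.6% of the B cell UMIs lay in the 117 cells with *Csf1r* or *Adgre1*.

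*Fabp4* and *Fabp5*, on chromosome 3 at 10204088–10208576 and 10012548–10016607, encode small cytosolic carriers of fatty acids. *Fabp4* in MΦs was at 125, 162, 265, 190, 206 and 286 CPM, with libraries 6 and 3 highest as for *Plin2*. B cells had 6.3 CPM or less, and without the cells that had *Csf1r* or *Adgre1* no thinned B cell of 2794 had a *Fabp4* UMI, which allows a share of cells with a UMI of up to 0.132% at this depth (exact interval) and does not bound expression. Before thinning these cells had 0.458 CPM. Gata6+ MΦs ran from 128 CPM in library 1 to 403 CPM in library 6, again with library 3 second. Irf4+ MΦs were lower than Gata6+ in 5 of 6 libraries, by a median log2 ratio of -1.29, and the exception was library 4, where the levels were 217 and 208 CPM. The difference was not called. Irf4+ levels in libraries 1, 2 and 5 rest on 9, 3 and 3 UMIs. With libraries pooled the ratio of Irf4+ over Gata6+ was 0.815 (0.684–0.966), much nearer to equal levels.

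*Fabp5* was shared by MΦs and B cells. It has a near-copy, *Fabp5l2*, which is counted separately and may share its reads. Neither class had the highest level. Cells that met no class rule had a median of 304 CPM over libraries (129 to 365 CPM), against 161 CPM in MΦs and 103 CPM in B cells. MΦs had 122, 167, 165, 129, 158 and 258 CPM and B cells 62.8, 84.3, 78.8, 122, 143 and 218 CPM. Library 6 was the highest in both classes. Of the 10 genes other than *Abcg1*, *Fabp5* was the one most concentrated in few MΦs, since the richest 5% of thinned cells held 56.3% of its UMIs, against 19.5% for *Npc2*. The 152 MΦs with a UMI of a dendritic cell marker (*Flt3*, *Zbtb46*, *Xcr1*, *Clec9a* or *Ccr7*) had 567 CPM and the other 2621 had 123 CPM. Of the 20 MΦs with the most *Fabp5*, 11 had a *Ccr7* UMI, as did 50 of all 2773, and 8 had a UMI of *Csf1r* or *Adgre1*. Each of the other 9 genes held 4.25 to 7.25% of its UMIs in the 152 cells, while *Fabp5* held 24.8%.

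**Figure D2:**
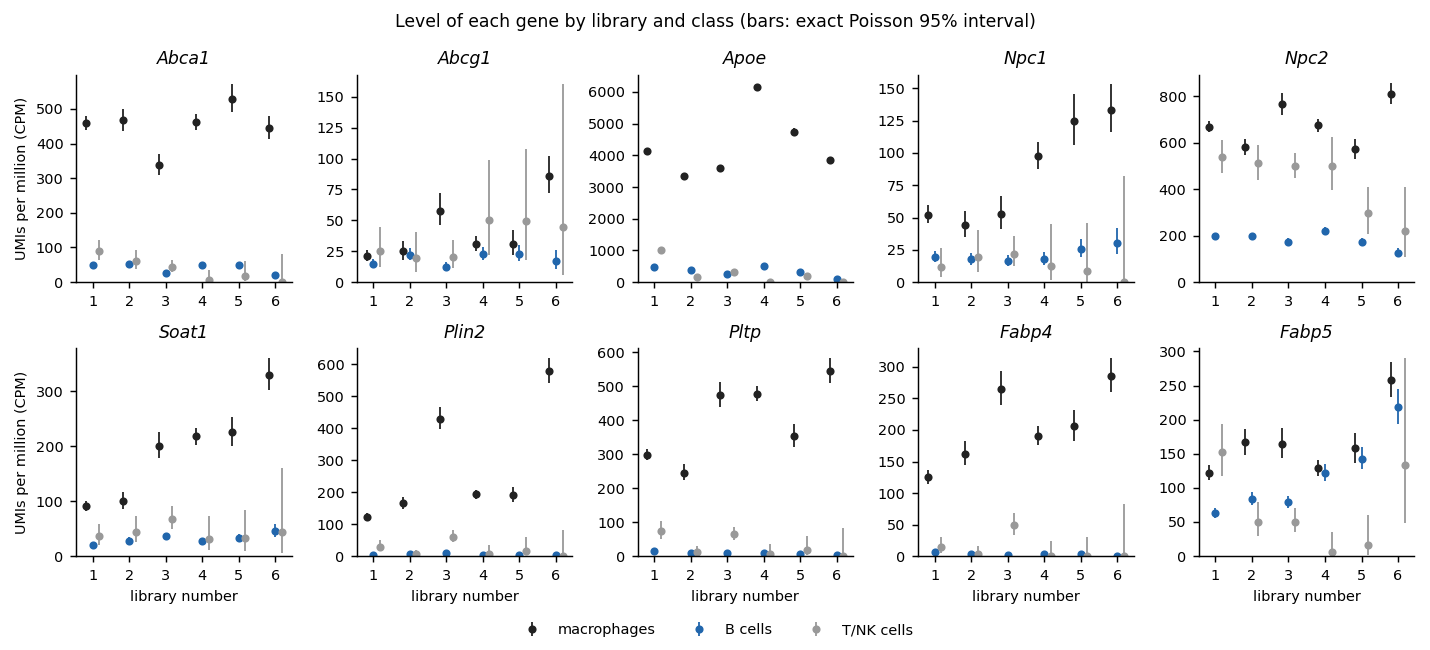
Level of each gene (CPM, linear axis from 0) in MΦs, B cells and T/NK cells of libraries 1 to 6, with exact Poisson 95% intervals as bars. *Plin2* and *Abcg1* in MΦs are highest in libraries 6 and 3, *Npc1* is higher in libraries 4, 5 and 6, and *Fabp5* of B cells nears the MΦ level in libraries 4, 5 and 6.

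The 3 MΦ classes thus ordered the genes differently. Irf4+ MΦs had less *Abca1* and *Apoe* than Gata6+ MΦs, and these were the only members called of the 10, with none higher. Of 8817 features 4.56% were called higher and 4.67% lower. Folr2+ over Gata6+ gave *Npc1* and *Pltp* higher and none lower, where 3.3% of 8690 features were higher and 2.54% lower. Irf4+ over Folr2+ gave *Apoe* lower and none higher, with 3.09% of 8806 features higher and 4.04% lower. Medians over the 10 genes were 0.11, 0.50 and -0.51 on the log2 scale, against -0.01, 0.09 and -0.06 over all features. The comparisons share cells of each class, so they are not independent. Library 2 had 5 Folr2+ cells and did not enter these comparisons.

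**Figure D3:**
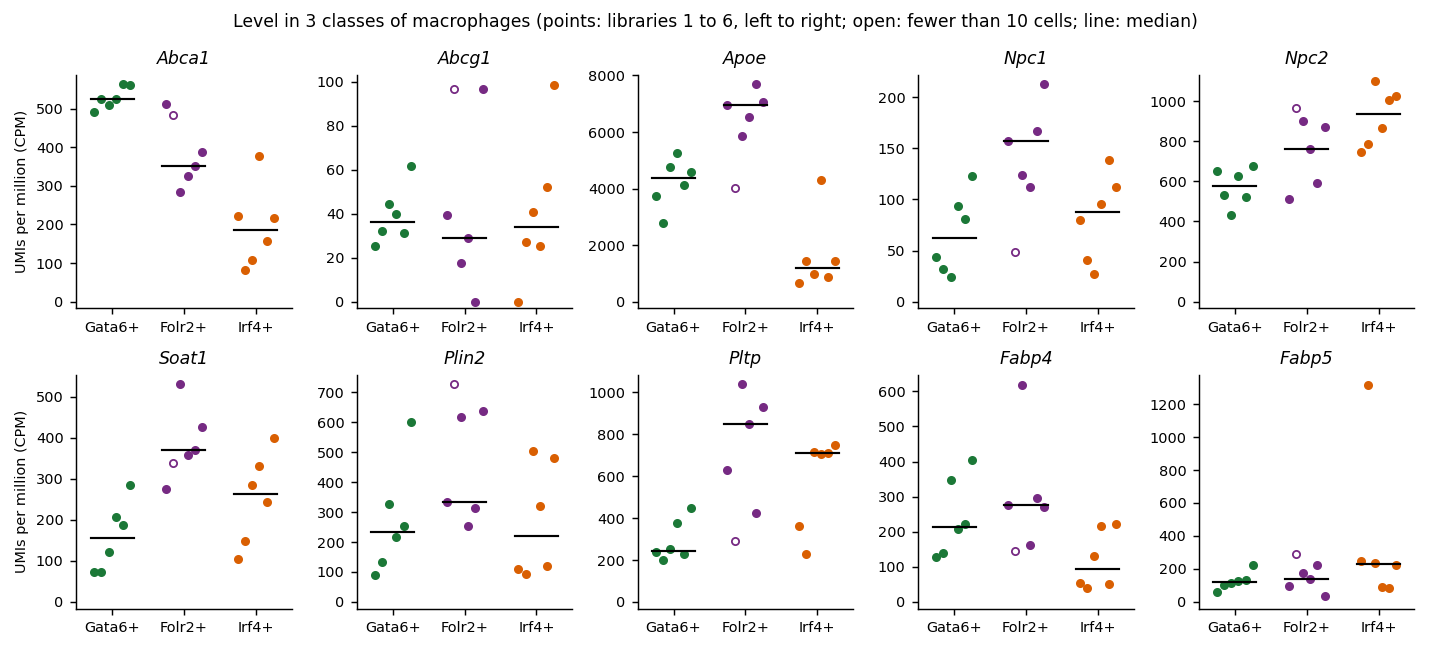
Level (CPM, linear axis) of each gene in Gata6+, Folr2+ and Irf4+ MΦs; points are libraries 1 to 6 from left to right, open where the library has fewer than 10 cells, and the line is the median of filled points. *Abca1* falls from Gata6+ to Irf4+ cells, *Apoe* is lowest in Irf4+ cells, *Pltp* is lowest in Gata6+ cells, and a single Irf4+ point of *Fabp5*, at 1313 CPM from 13 cells of library 2, lies far above the rest.

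**Figure D4:**
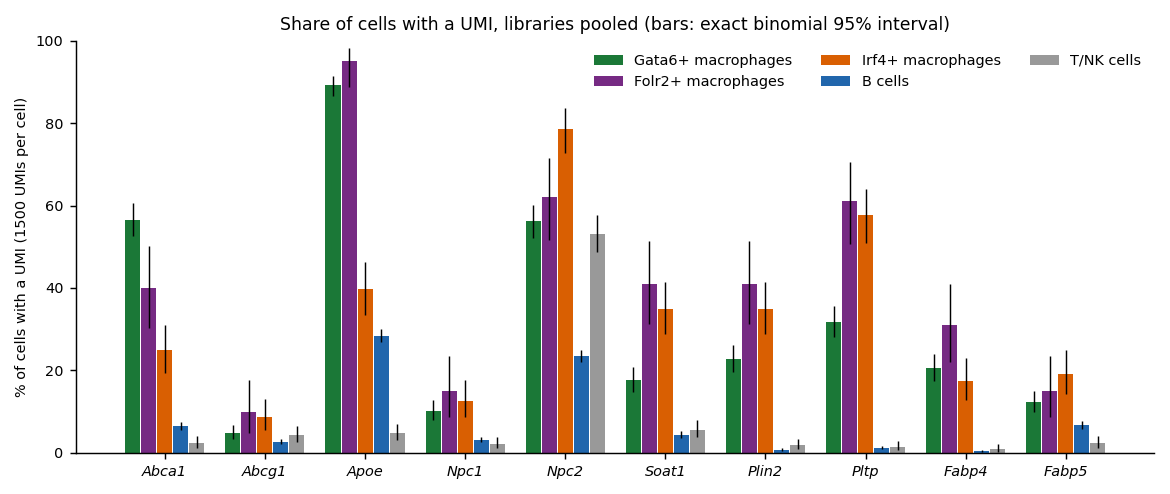
Share of cells with a UMI of each gene after thinning every cell to 1500 UMIs, libraries pooled, for 5 classes, with exact binomial 95% intervals. *Apoe* is found in most Gata6+ and Folr2+ MΦs and in 28.5% of B cells, *Npc2* is found in 53.2% of T/NK cells, and *Plin2*, *Pltp* and *Fabp4* are nearly confined to the MΦ classes.

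Cell depth differed between these classes. The median was 5553 UMIs in Gata6+, 4273 in Folr2+, 4036 in Irf4+, 5416 in B and 2814 in T/NK cells, and without thinning 85.9% of MΦs, 45.6% of B cells and 7.0% of T/NK cells had an *Apoe* UMI. Thinning left the order of MΦs, B cells and T/NK cells for *Apoe* as it was.

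Levels in MΦs differed between libraries for most members. A gene was counted where the highest library was at least 2 times the lowest and their exact Poisson 95% intervals did not overlap. This held for 7 of 10 genes in MΦs, all but *Abca1*, *Apoe* and *Npc2*, and library 6 was the highest for each of the 7. Of all 8747 features 35.5% were counted, and of the 5163 with at least 20 CPM 36.9%. In Gata6+ MΦs alone, 6 genes were counted: *Npc1*, *Soat1*, *Plin2*, *Pltp*, *Fabp4* and *Fabp5*. The background there was 21.3% of 8546 features, or 31.7% of the 5049 with at least 20 CPM. The median fold over the members was 2.25 in MΦs and 2.81 in Gata6+ MΦs, against 1.98 and 2.63 over all features. Without library 6, *Pltp* and *Fabp5* were no longer counted in MΦs, nor *Pltp* in Gata6+ MΦs. *Pltp* was also lost from both without library 2, and *Fabp4* from MΦs without library 1. *Npc1* was lost from Gata6+ MΦs on thinning to 1500 UMIs, and *Pltp* from MΦs when only cells with none of *Gata6*, *Folr2* and *Irf4* were taken.

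**Figure D5:**
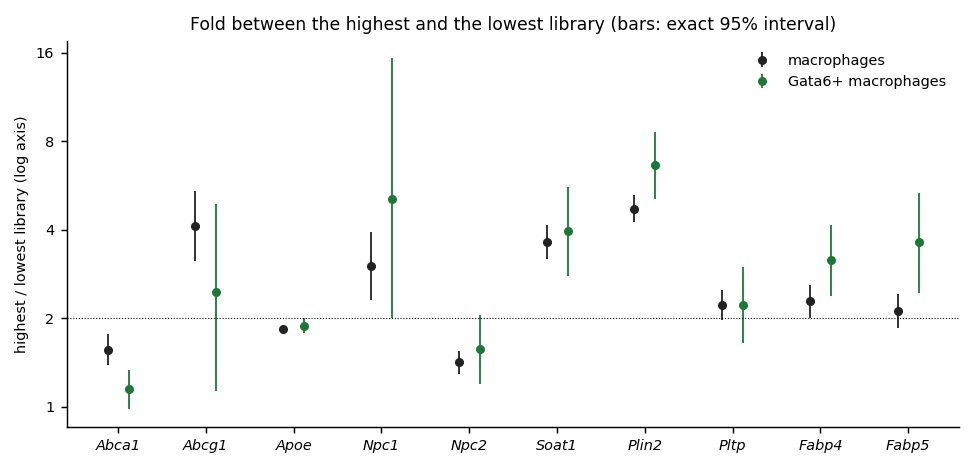
Fold between the highest and the lowest of 6 libraries for each gene (log axis), in all MΦs and in Gata6+ MΦs, with exact 95% intervals as bars and a dotted line at 2. *Plin2* has the widest fold (4.73 and 6.64) and *Abca1* in Gata6+ MΦs the narrowest (1.15), while the wide bar of *Npc1* in Gata6+ MΦs starts from 6 UMIs in the lowest library.

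Other genes of the pathway were read from lists of regulators, uptake receptors, lysosomal, ester, efflux and fatty acid genes. Of all features, 17.8% were called higher and 20.6% lower in MΦs than in B cells. Of 7 uptake genes compared, 5 were higher in MΦs than in B cells and none was lower. The low-density lipoprotein receptor family member *Lrp1* (median log2 ratio 5.94) and the scavenger receptors *Olr1* (5.92), *Msr1* (5.39) and *Cd36* (5.36) led them. Of 11 lysosomal genes 7 were higher, among them *Lipa*, the lysosomal acid lipase (3.98), the phospholipase gene *Pla2g15* (2.80) and *Lamp1* (2.69). Of 5 efflux and apolipoprotein genes 4 were higher, led by the lipoprotein lipase *Lpl* (5.30), as were 3 of 7 ester and droplet genes. Of 14 fatty acid genes 4 were higher and 3 lower, the strongest being the desaturase *Scd1*, at a median of 3.0 CPM in MΦs and 199 CPM in B cells. Of 6 regulators, *Rxra*, the partner of the liver X receptors, was higher (4.36), as was *Ppard* (1.88), and *Srebf2*, which drives sterol synthesis, was lower (-1.03). The shares of fatty acid genes and of regulators called lower were near that of all features.

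Against T/NK cells, where 16.6% of all features were higher and 14.6% lower, the counts were 6 of 7 uptake genes higher, 4 of 11 lysosomal genes higher and 1 lower, 3 of 7 ester genes higher and 1 lower, 2 of 6 efflux genes, 3 of 14 fatty acid genes and 2 of 7 regulators higher. The share of fatty acid genes was near that of all features. Between MΦ classes *Lpl* stood out. It was at a median of 1672 CPM in Irf4+ and 399 CPM in Gata6+ MΦs, with a median log2 ratio of 2.46. In Folr2+ over Gata6+ MΦs its median log2 ratio was 1.59. Of 6 efflux genes there, 1 was called higher and 1 lower, and their median was -0.24. Among all 8690 features 3.3% were higher and 2.54% lower. In Irf4+ over Folr2+ MΦs no efflux gene was called, where 3.09% of features were higher and 4.04% lower. In Irf4+ over Gata6+ MΦs 4.56% of all features were called higher and 4.67% lower. From the lists, 1 of 7 regulators and 1 of 5 efflux genes were higher. Lower were 2 of 7 regulators, 3 of 7 uptake genes, 1 of 8 ester, 1 of 5 efflux and 1 of 14 fatty acid genes. For the fatty acid genes this was near the share of all features. The median over the 7 uptake genes was 0.22, against the direction of the 3 called. *Mylip* (-2.04), *Msr1* (-2.0), *Olr1* (-1.13) and *Rxra* (-1.20) were lower in Irf4+ than in Gata6+ MΦs and *Srebf2* was higher (1.42). The liver X receptor genes *Nr1h2* and *Nr1h3* were at medians of 52.6 and 5.61 CPM in MΦs.

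Across libraries, 7 of 11 lysosomal, 6 of 8 ester, 4 of 7 uptake, 4 of 6 efflux, 6 of 14 fatty acid and 2 of 7 regulator genes passed the same 2-fold rule in MΦs, where 35.5% of all features did. The regulators and the fatty acid genes were near that share. *Lpl* ranged from 457 to 2218 CPM and *Cd36* from 864 to 3404 CPM. In Gata6+ MΦs the counts were 6 of 11, 2 of 8, 5 of 7, 3 of 6, 3 of 13 and 1 of 6, where 21.3% of all features passed. The ester, fatty acid and regulator genes were near that share.

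The pattern over the 3 MΦ classes in 6 libraries (18 points, among 5307 features of at least 20 CPM) was like that of *Fn1* and *Ninj1* for *Abca1*, with Pearson correlations of 0.92 and 0.90. *App* (0.89), *Fcna* and *Mef2a* followed *Apoe*, and *Reep3* (0.94), *Sgpl1* and *Vcp* followed *Npc1*. *Psap* (0.94), *Emp1* and *Prdx1* were nearest to *Soat1*, *Adam8* (0.87), *Rhob* and *Metap2* to *Plin2*, and *Akr1a1* (0.89), *Tkt* and *Psap* to *Pltp*. *C3ar1* (0.88), *Peak1* and *Sdcbp* were nearest to *Fabp4*, *Rasgef1b* (0.85), *Rbm34* and *Minos1* to *Npc2*, *Med23* (0.82), *Sec23ip* and *Stau1* to *Abcg1*, and *Rps18-ps3* (0.78), *Erh* and *Runx3* to *Fabp5*. These points share libraries and some rest on few cells. Those of *Abcg1* rest on few UMIs, with 0 CPM in Irf4+ cells of library 1 and in Folr2+ cells of library 5. The nearest genes of *Abcg1* are therefore not informative. Those of *Fabp5* had the weakest correlations and are not informative either. Its Folr2+ points of libraries 1 and 6 rest on 5 and 2 UMIs, each from 1 cell. In Irf4+ cells of library 2, 1 cell held 52 of 97 *Fabp5* UMIs. Within single libraries, Spearman correlations between the members over thinned MΦs were weak. Their medians ran from -0.13 (*Abca1* and *Npc2*) to 0.15 (*Abca1* and *Apoe*) over 45 pairs, in 225 to 678 cells per library.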

How the data were processed

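Droplet single-cell RNA-seq of peritoneal cells was analysed from the raw UMI counts that the authors deposited as 1 table for all 6 libraries, with features as rows and barcodes as columns. The submitters' processing notes name Cell Ranger 2.2, Seurat 3.0 and mm10 (GRCm38). In the study's methods STAR placed reads on both species' genomes, and those on the mouse genome were used. The annotation is not given in the sources used here, and positions are from GENCODE vM21. Barcodes carry a library number that no label ties to a sample, so no genotype or time point was compared.

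Following the study, cells were left out if they had fewer than 500 genes, more than 10% mitochondrial counts or a complexity under 0.8. The study words this last limit as UMIs per gene. Here it was taken as the log number of genes over the log UMI count. No doublet caller was run, and an alternative left out the 5% deepest cells of each library. Counts were summed by class and library and divided by total counts (CPM), without a count model. Comparisons took features with a mean of at least 5 CPM and libraries with at least 10 cells, with 1 CPM added before log2. Shares were taken after thinning cells to 1500 UMIs. Intervals are exact 95% intervals (Poisson for levels, Clopper-Pearson for shares, conditional binomial for ratios) and cover counting error only. Python 3.11.15, numpy 2.4.6 and scipy 1.17.1 were used, and the scripts were tested on simulated data.

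The 10 genes, gene lists and marker lists were chosen with earlier results of these data known. From each list at most 4 called genes with the largest ratios were named, and for each member the 3 features with the highest correlation, except for an item that is not reported here. Alternatives that left out cells with a macrophage or dendritic cell marker, kept only MΦs with none of *Gata6*, *Folr2* and *Irf4*, or took features of at least 20 CPM were chosen after seeing the data.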

Additional observations from a re-analysis of the deposited data

Results flagged for a closer look

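In 7 of 60 groups of libraries 1 library stood apart by Dixon's ratio (the gap to the next library over the whole range, above the 95% critical value for the number of libraries). Chance would give about 1 in 20 among independent groups of replicates, but these libraries are different conditions and the groups share cells, so that rate is only a guide. *Fabp5* in MΦs was highest in library 6 at 258 CPM, against 167 CPM in the next library (ratio 0.671). In Irf4+ MΦs *Fabp5* of library 2 was at 1313 CPM, against 251 CPM (0.866), and 3 of its 13 cells, those with a dendritic cell marker, held nearly all of these UMIs. *Apoe* in Irf4+ MΦs of library 4 was at 4296 CPM, against 1449 CPM (0.783). Irf4+ cells of that library also had the highest summed level of large peritoneal MΦ markers. *Plin2* in B cells of library 3 was at 8.98 CPM, against 4.97 CPM (0.645). In T/NK cells *Apoe* of library 1 was at 1014 CPM, against 323 CPM (0.681), *Soat1* of library 3 at 67.8 CPM, against 44.6 CPM (0.634), and *Fabp4* of library 3 at 49.1 CPM, against 13.6 CPM (0.723). Libraries 1 and 3 held 13 and 12 of the 29 T/NK cells with a *Csf1r* or *Adgre1* UMI.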

How the results depend on the processing

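Of 1200 values of single genes recomputed under the alternatives, 1092 moved by less than 1 SD between libraries or stayed within their 95% interval, 108 moved by more (65 of them on thinning, which moved 65 of its 110 values, most of them shares of cells), and 0 called values changed sign. For Irf4+ over Gata6+ MΦs, 2 genes were called. A stricter class rule called 1 (*Abca1* was lost) and the pooled ratio 5 (*Soat1*, *Pltp* and *Fabp5* were added). Thinning added *Pltp*, and letting a cell enter several classes added *Fabp4* here and *Soat1* in Folr2+ over Gata6+. For Folr2+ over Gata6+ MΦs, 2 were called. A higher minimum of genes per cell, the stricter class rule, leaving out the 5% deepest cells, a pseudocount of 10 CPM, thinning to 1500 UMIs and leaving out MΦs with a dendritic cell marker each called 1, *Npc1* being lost, and the pooled ratio called 4 (*Soat1* and *Plin2* were added). For Irf4+ over Folr2+ MΦs, 1 was called, and 2 without the 5% deepest cells (*Npc1* was added). The cause was not tested.

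With each library left out in turn, members called ranged from 8 to 8 (MΦs over B cells), 7 to 8 (over T/NK cells), 2 to 3 (Irf4+ over Gata6+), 1 to 3 (Folr2+ over Gata6+), 1 to 3 (Irf4+ over Folr2+), 5 to 7 (between libraries in MΦs) and 5 to 6 (in Gata6+ MΦs). *Npc1* in Folr2+ over Gata6+ was lost without library 1 or 3. Irf4+ over Folr2+ gained *Abca1* and *Fabp4* without library 4, and Irf4+ over Gata6+ gained *Fabp4*. No paired analysis was possible because the labels number no replicates and no library number is tied to a sample. Class ratios were already taken within libraries and were not tested. Folr2+ cells were few (5 to 46 per library) and *Abcg1* counts low, which limits what their values can show.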
